A study of Homo sapiens with 13 samples.

Results

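The genes described here carry SW480 colon cancer cells from G1 into S phase and copy their DNA. They are 51 genes, taken by symbol from 18404 named genes on the array, each read from the transcript cluster with the highest mean where a gene had more than 1. The genes were ordered by role into 15 cyclin, CDK, RB and E2F genes, 11 genes of origin licensing and 25 genes of the replication fork and of chromatin assembly behind it. All 51 were measured and no filter on dim genes was applied, so every member entered every comparison.

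SW480 is an established human colon cancer cell line. Cells were kept for 6 h in DFO (deferoxamine, an iron chelator in clinical use, n = 4), in Deferasirox (an oral iron chelator, n = 3), in OICR623 (a compound known here by its code name, n = 2) or in the solvent DMSO at 0.1% (n = 4), and total RNA was read on Affymetrix Human Gene 1.0 ST arrays. The study set the compound OICR623 beside 2 known iron chelators. The labels give 100 mM DFO, 50 mM Deferasirox and 10 mM OICR623, which are high concentrations for cultured cells, and do not settle whether another unit was meant. The doses differ, so no compounds were compared at a matched dose. The replicates are described as independent experiments, and all arrays come from 1 cell line.

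In a dividing cell, cyclin D with CDK4 or CDK6 and then cyclin E with CDK2 phosphorylate the RB protein, which releases E2F transcription factors from repression. E2F factors then drive the genes for cyclin E, for E2F1 itself and for much of the replication machinery. Origins are licensed when ORC, CDC6 and CDT1 load the MCM helicase onto DNA. At the start of S phase CDC45 and the GINS complex turn that helicase on, and DNA polymerases, the sliding clamp PCNA, its loader RFC and the nuclease FEN1 copy the strands. Iron is a cofactor of ribonucleotide reductase and of several replication enzymes, and chelators are known to slow S phase in cultured cells.

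The E2F family recognises sites near the start of many of these genes, so promoters of 4 of the members that rose are shown, running from 250 bases before to 50 bases after the annotated start. The sequences are from RefSeq (GRCh38.p14) and are written 5′ to 3′ on the strand of the gene. Capitals mark matches to TTTNNCGC, a core of the E2F site, on either strand, and overlapping matches run together. E2F1 (chr20:33686336-33686635, minus strand) held 4 matches, E2F2 (chr1:23531184-23531483, minus strand) 3, CDC6 (chr17:40287629-40287928, plus strand) 1 and CCNE1 (chr19:29811741-29812040, plus strand) 0.
CCNE1: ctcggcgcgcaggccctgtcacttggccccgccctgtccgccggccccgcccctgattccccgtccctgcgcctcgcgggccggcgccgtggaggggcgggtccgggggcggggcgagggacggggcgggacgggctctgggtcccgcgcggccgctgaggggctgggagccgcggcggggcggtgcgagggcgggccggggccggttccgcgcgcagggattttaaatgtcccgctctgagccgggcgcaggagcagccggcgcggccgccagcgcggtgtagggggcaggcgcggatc
E2F1: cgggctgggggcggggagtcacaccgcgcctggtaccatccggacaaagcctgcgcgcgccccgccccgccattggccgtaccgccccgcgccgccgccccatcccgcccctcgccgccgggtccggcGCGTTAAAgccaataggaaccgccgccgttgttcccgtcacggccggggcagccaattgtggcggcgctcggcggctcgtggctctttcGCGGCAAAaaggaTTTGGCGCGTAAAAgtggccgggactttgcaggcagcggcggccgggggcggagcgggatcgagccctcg
E2F2: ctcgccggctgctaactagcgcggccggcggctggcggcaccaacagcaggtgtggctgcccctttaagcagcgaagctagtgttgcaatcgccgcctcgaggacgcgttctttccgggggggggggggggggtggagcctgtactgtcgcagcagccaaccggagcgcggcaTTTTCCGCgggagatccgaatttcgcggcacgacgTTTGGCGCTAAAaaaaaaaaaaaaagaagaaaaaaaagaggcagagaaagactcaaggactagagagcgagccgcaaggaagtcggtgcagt
CDC6: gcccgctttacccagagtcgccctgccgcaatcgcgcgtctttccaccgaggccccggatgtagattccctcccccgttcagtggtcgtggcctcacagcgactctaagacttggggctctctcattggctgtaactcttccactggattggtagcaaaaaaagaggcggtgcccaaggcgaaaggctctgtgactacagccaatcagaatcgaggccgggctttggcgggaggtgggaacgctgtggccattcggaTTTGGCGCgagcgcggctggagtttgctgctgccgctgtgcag
The CDC6 match lay after the annotated start, and all those of E2F1 and E2F2 lay before it. No match in the CCNE1 window says only that these letters are not within it. Over the 43 members with an entry in the promoter table, 25 held at least 1 match (58.1%), against 8.96% of the windows of 14230 genes tested. The letters did not single out the members that rose under DFO. They stood in 5 of the 10 such members with an entry, namely CDC25A, E2F1, E2F2, CDC6 and PCNA, and in 20 of the 33 members that were not called (60.6%). CCAAT, the core of the NF-Y site, stood in 53.5% of members and 36.3% of all windows, and in 7 of the 10 members that rose under DFO (70%) against 48.5% of the members not called. ACGTG, the core of the site of hypoxia-inducible factor, stood in 32.6% of members and 24% of all windows, and in 2 of the 10 members that rose under DFO (20%) against 36.4% of those not called.

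Array medians formed 3 levels that cut across the treatments, and every difference below was fitted with the level as a block. The high level (median log2 signal 7.17 to 7.19) held DFO 1 and DMSO 1, and the low level (6.52 to 6.55) held DFO 4, Deferasirox 3 and DMSO 4. The other 8 arrays, 2 of each group, lay at 6.64 to 6.69. DFO 1 and DMSO 1 also shared exactly equal values in 5535 of 18404 genes (30.1%), where the highest share in the other 77 pairs of arrays was 0.201%. The members with equal values in this pair were GMNN, MCM2, LIG1, RPA1 and RPA2, so their difference in the high level was 0. The cause was not tested, and counts are given with and without these arrays. Of the 10 markers of colon epithelium, KRT8, KRT18, KRT19, EPCAM and CDX2 averaged 12.67, 13.02, 10.69, 9.64 and 8.79 on the log2 scale, above the median gene mean of 7.46. The other 5 lay below it, with CDX1 at 7.22, VIL1 at 7.0, CDH1 at 5.52, KRT20 at 5.28 and CEACAM5 at 4.92. The 13 measured markers of leukocytes, fibroblasts and endothelium averaged 3.27 to 7.77, and 0 of them were called by limma under any compound, with 0 under DFO, 2 under Deferasirox and 0 under OICR623 at an unadjusted p under 0.05. Their summed signal (log2) was 9.52 to 10.0 in DFO, 9.52 to 9.57 in Deferasirox, 9.53 to 9.61 in OICR623 and 9.48 to 10.03 in DMSO arrays.

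Under DFO the genes for both E cyclins and for 3 E2F factors rose, and a few licensing and fork genes rose by less. Of the 51 members 12 rose and 0 fell by limma, at a p of under 0.05 after Benjamini-Hochberg adjustment across the 18404 genes, where 1.89% of all genes rose and 2.72% fell. Without the high level 12 rose as well, where 1.96% of all genes did. These 12 held MCM5 (adjusted p = 0.0483) in place of CDK2 (adjusted p = 0.0892). At an unadjusted p under 0.05 there were 28 members higher and 0 lower, where 7.06% of all genes were higher and 8.64% lower. The median log2 fold change of the members was 0.11, against 0.00 over all genes. Above 0 lay 46 members (90.2%), against 51.1% of all genes. The 25th to 75th percentile of the members ran from 0.06 to 0.18, and CCNE2, CCNE1, E2F7, E2F2 and E2F1 stood at the top of the range.

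**Figure D1:**
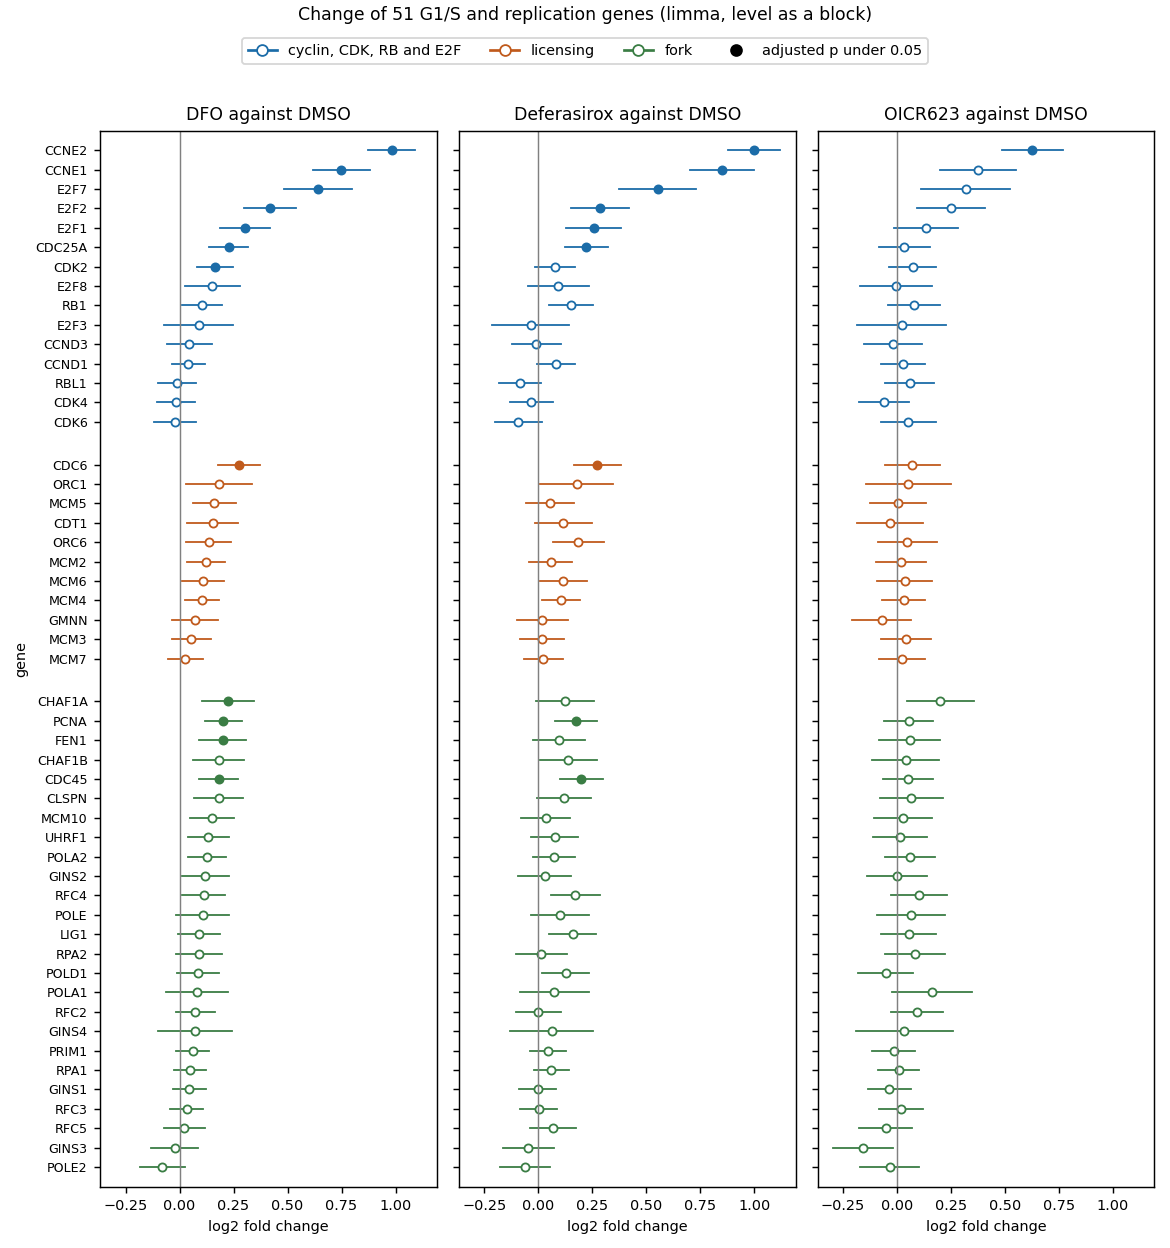
Log2 fold change of each of the 51 members under DFO, Deferasirox and OICR623 against DMSO, from limma with the level as a block, with the 95% interval of each; genes run down the page by role and filled points are called members. CCNE2, CCNE1 and E2F7 lie farthest to the right under each compound, and among the licensing and fork genes CDC6, CHAF1A, PCNA, FEN1 and CDC45 are filled under DFO.

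CCNE2 and CCNE1 encode the E cyclins, the activating partners of CDK2. CCNE2 (transcript cluster 8151871) had log2 signals of 11.71, 10.53, 10.55 and 10.68 in DFO 1 to 4, of 10.54, 10.64 and 10.67 in Deferasirox 1 to 3, of 10.28 and 10.15 in OICR623 1 and 2, and of 10.64, 9.69, 9.56 and 9.64 in DMSO 1 to 4. Only DMSO 1, the array of the high level, reached the values of the treated arrays, and within each level every treated array lay above every DMSO array. CCNE2 rose by 0.98 under DFO (SE 0.05, 1.98-fold, adjusted p = 8.68e-07), by 1.00 under Deferasirox (SE 0.05, 2.00-fold, adjusted p = 2.45e-06) and by 0.63 under OICR623 (SE 0.06, 1.54-fold, adjusted p = 0.00115). It was called without any 1 of the 13 arrays under each compound. With no block, or with the replicate number in place of the level, it was called under no compound. Under OICR623 it was also not called with array medians set equal, with quantile normalization or with a replicate block beside the level.

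CCNE1 (transcript cluster 8027402) had log2 signals of 9.76, 8.34, 8.51 and 8.74 in DFO 1 to 4, of 8.50, 8.40 and 8.94 in Deferasirox 1 to 3, of 8.09 and 7.96 in OICR623 1 and 2, and of 9.11, 7.70, 7.64 and 7.90 in DMSO 1 to 4. Within each level the treated arrays again lay above the DMSO arrays, with the OICR623 arrays between DMSO and the other compounds. CCNE1 rose by 0.75 under DFO (SE 0.06, 1.68-fold, adjusted p = 3.26e-05) and by 0.85 under Deferasirox (SE 0.07, 1.80-fold, adjusted p = 3.88e-05). Under OICR623 its difference was 0.38 (95% interval 0.20 to 0.55, adjusted p = 0.0677), which did not pass. Their partner CDK2, the kinase of the G1/S transition, had signals of 11.44, 10.94, 10.97 and 10.77 in DFO 1 to 4 and of 11.29, 10.83, 10.79 and 10.55 in DMSO 1 to 4. CDK2 rose by 0.16 under DFO (SE 0.04, adjusted p = 0.0327), a call lost without any 1 of the 8 DFO and DMSO arrays. Leaving out DFO 1, DMSO 1 or both amounts to the same fit for every gene, as they alone form the high level.

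**Figure D2:**
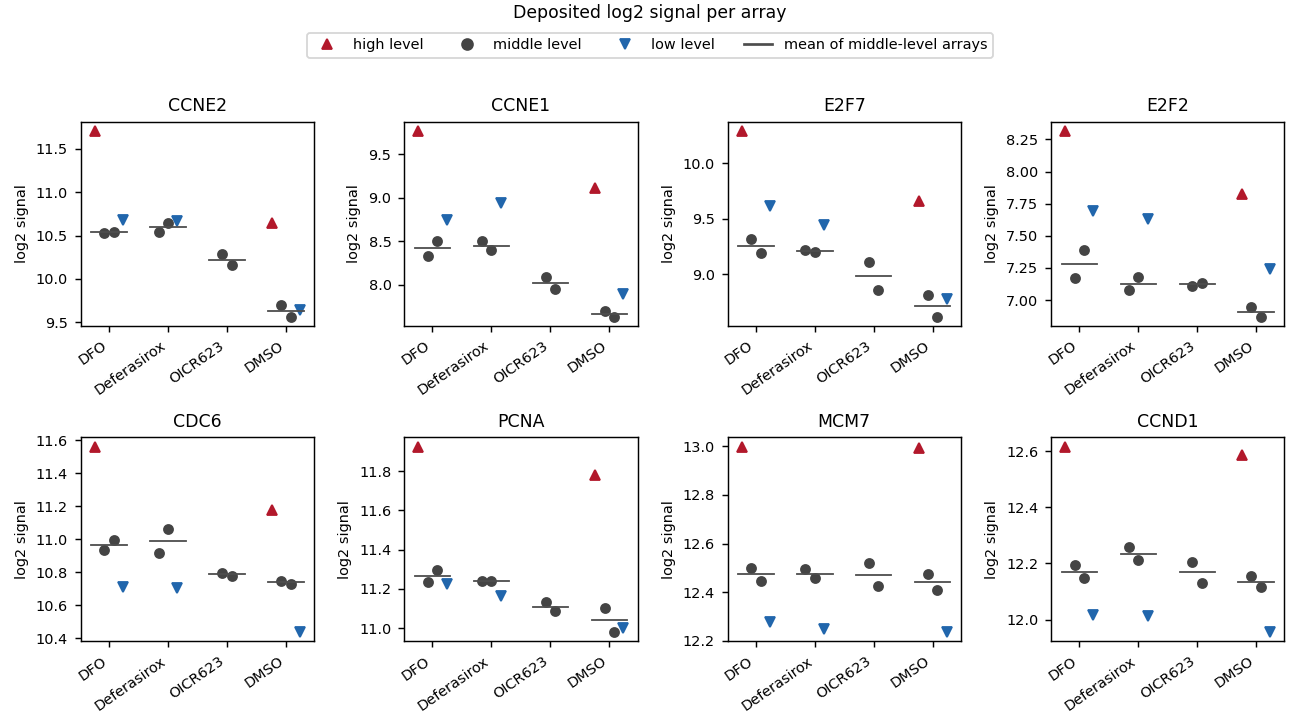
Deposited log2 signal on each of the 13 arrays, by group from left to right, for CCNE2, CCNE1, E2F7, E2F2, CDC6 and PCNA and for MCM7 and CCND1, which were not called; symbols mark the level of each array and lines the mean of the middle-level arrays. DFO 1 and DMSO 1 sit above the other arrays of their groups in every panel, and within a level the treated arrays of CCNE2 and CCNE1 lie above the DMSO arrays.

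Among the E2F genes, E2F1 and E2F2 encode activators and E2F7 and E2F8 encode repressors that shut E2F targets off later in S phase. E2F7 had log2 signals of 10.29, 9.32, 9.20 and 9.62 in DFO 1 to 4, of 9.22, 9.20 and 9.45 in Deferasirox 1 to 3, of 9.11 and 8.86 in OICR623 1 and 2, and of 9.66, 8.81, 8.62 and 8.77 in DMSO 1 to 4. DFO and Deferasirox arrays lay above the DMSO arrays of their level without overlap, and so did both OICR623 arrays. E2F7 rose by 0.64 under DFO (SE 0.07, adjusted p = 0.000352) and by 0.55 under Deferasirox (SE 0.08, adjusted p = 0.00201), with 0.32 under OICR623 (interval 0.11 to 0.53, adjusted p = 0.205).

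E2F2 had signals of 8.32, 7.17, 7.39 and 7.69 in DFO 1 to 4, of 7.08, 7.18 and 7.63 in Deferasirox 1 to 3, of 7.11 and 7.13 in OICR623 1 and 2, and of 7.83, 6.95, 6.87 and 7.24 in DMSO 1 to 4. It rose by 0.42 under DFO (SE 0.05, adjusted p = 0.0011) and by 0.29 under Deferasirox (SE 0.06, adjusted p = 0.0201), with 0.25 under OICR623 (interval 0.10 to 0.41, adjusted p = 0.188). E2F1 had signals of 11.03, 10.62, 10.76 and 10.47 in DFO 1 to 4, of 10.53, 10.63 and 10.51 in Deferasirox 1 to 3, of 10.42 and 10.54 in OICR623 1 and 2, and of 10.81, 10.29, 10.39 and 10.17 in DMSO 1 to 4. Both genes were higher in every DFO and Deferasirox array than in any DMSO array of the same level. E2F1 rose by 0.30 under DFO (SE 0.05, adjusted p = 0.00623) and by 0.26 under Deferasirox (SE 0.06, adjusted p = 0.0257), with 0.13 under OICR623 (interval -0.01 to 0.28).

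The phosphatase gene CDC25A, whose product activates CDK2, had signals of 10.26, 9.36, 9.48 and 9.25 in DFO 1 to 4, of 9.35, 9.45 and 9.29 in Deferasirox 1 to 3 and of 10.03, 9.15, 9.22 and 9.05 in DMSO 1 to 4. CDC25A rose by 0.23 under DFO (SE 0.04, adjusted p = 0.00855) and by 0.22 under Deferasirox (SE 0.05, adjusted p = 0.016), with 0.03 under OICR623 (interval -0.08 to 0.15). The DFO and Deferasirox means lay above the DMSO means of each level by 0.20 to 0.24. The other genes of this group were not called under either chelator, except CDK2 under DFO. CDK4, a kinase that acts with cyclin D, stood at -0.02 under DFO, -0.03 under Deferasirox and -0.06 under OICR623. CDK6 stood at -0.02, -0.09 and 0.05 under the same compounds, and the cyclin gene CCND1 at 0.04, 0.08 and 0.03. RB1, which encodes the RB protein itself, had 0.10 under DFO (interval 0.01 to 0.19, adjusted p = 0.253) and 0.15 under Deferasirox (interval 0.05 to 0.25, adjusted p = 0.0966), and the related RBL1 had -0.01 and -0.08. E2F3 had 0.09 under DFO and -0.04 under Deferasirox, and E2F8 had 0.15 under DFO (interval 0.02 to 0.28) and 0.09 under Deferasirox. Of the 15 genes of this group 7 rose under DFO (1.89% of all genes), with a median log2 fold change of 0.15. Under Deferasirox 6 rose (2.83% of all genes), with a median of 0.09, and under OICR623 1 rose (0.337% of all genes), with a median of 0.06.

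Of the 11 licensing genes only CDC6, whose product loads the MCM helicase, was called under DFO and under Deferasirox. By the same test 1.89% of all genes rose under DFO and 2.83% under Deferasirox. CDC6 had 11.56, 10.94, 10.99 and 10.71 in DFO 1 to 4, 10.92, 11.06 and 10.70 in Deferasirox 1 to 3, 10.80 and 10.78 in OICR623 1 and 2, and 11.18, 10.75, 10.73 and 10.44 in DMSO 1 to 4. Its DFO and Deferasirox arrays lay above the DMSO arrays of the same level without overlap. CDC6 rose by 0.28 under DFO (SE 0.04, adjusted p = 0.00421) and by 0.27 under Deferasirox (SE 0.05, adjusted p = 0.00772), with 0.07 under OICR623 (interval -0.05 to 0.20). All 11 licensing genes lay above 0 under DFO, at 0.03 for MCM7 to 0.28, with a median of 0.12. Of them 8 had an unadjusted p under 0.05. Of all genes 51.1% lay above 0 under DFO, and 7.06% were higher at that p. All 11 also lay above 0 under Deferasirox, with a median of 0.10, against 51% of all genes above 0. Under OICR623 9 of the 11 lay above 0, with a median of 0.03, against 51.5% of all genes above 0. MCM5, a subunit of the helicase, came closest of those that missed under DFO, at 0.16 (adjusted p = 0.0785). Without the high level MCM5 was called, at 0.20 (adjusted p = 0.0483). ORC6, a subunit of the origin recognition complex, came closest under Deferasirox, at 0.19 (adjusted p = 0.0741). CDT1, which brings the helicase to origins, stood at 0.15 under DFO, 0.12 under Deferasirox and -0.03 under OICR623. GMNN, which encodes the CDT1 inhibitor geminin, stood at 0.07, 0.02 and -0.07.

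Among the 25 fork genes 4 rose under DFO (1.89% of all genes) and 2 under Deferasirox (2.83%). Under OICR623 0 were called by limma, and at an unadjusted p under 0.05 there were 1 higher and 1 lower, shares close to those of all genes (4.8% and 5.87%). PCNA, the sliding clamp, had 11.92, 11.23, 11.30 and 11.22 in DFO 1 to 4, 11.24, 11.24 and 11.16 in Deferasirox 1 to 3 and 11.78, 11.10, 10.98 and 11.00 in DMSO 1 to 4. CDC45, part of the active helicase, had 10.38, 9.85, 9.88 and 9.96 in DFO 1 to 4, 9.85, 9.93 and 9.92 in Deferasirox 1 to 3 and 10.30, 9.67, 9.69 and 9.68 in DMSO 1 to 4. Both were higher in each DFO and Deferasirox array than in the DMSO arrays of its level, and the level means differed by 0.08 to 0.27. PCNA rose by 0.20 under DFO (SE 0.04, adjusted p = 0.0133) and by 0.18 under Deferasirox (SE 0.04, adjusted p = 0.042). CDC45 rose by 0.18 under DFO (SE 0.04, adjusted p = 0.0276) and by 0.20 under Deferasirox (SE 0.05, adjusted p = 0.0261). The PCNA call under Deferasirox was lost without any of 12 of the 13 arrays, and that under DFO without DFO 4 or DMSO 4. The CDC45 call was lost without any of 6 arrays under DFO and of 5 under Deferasirox. Under OICR623 PCNA and CDC45 both stood at 0.05.

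FEN1, the nuclease that trims Okazaki fragments, had 10.72, 9.81, 9.94 and 9.87 in DFO 1 to 4 and 10.66, 9.68, 9.67 and 9.53 in DMSO 1 to 4. FEN1 rose by 0.20 under DFO (SE 0.05, adjusted p = 0.0465), with 0.10 under Deferasirox (interval -0.02 to 0.22). CHAF1A, a subunit of the histone chaperone that assembles new nucleosomes, rose by 0.22 under DFO (SE 0.05, adjusted p = 0.0421), with 0.12 under Deferasirox and 0.20 under OICR623 (adjusted p = 0.314). Under DFO these 2 calls were the nearest to the threshold on its inner side, and the FEN1 call was lost without any of 11 arrays and that of CHAF1A without any of 10. Just outside it under DFO were CLSPN, which encodes a mediator of the replication checkpoint, at 0.18 (adjusted p = 0.0806) and CHAF1B, the partner of CHAF1A, at 0.18 (adjusted p = 0.0955). CLSPN has a second transcript cluster (7914851), which stood at 0.32 under DFO (adjusted p = 0.0311). Its clusters thus fell on different sides of the threshold. UHRF1 also has a second cluster (8032922), at 0.03 under DFO (adjusted p = 0.94), where the cluster used stood at 0.13 (adjusted p = 0.136). The values of both second clusters come from a limma fit over all named rows. The polymerase and primase genes among the members (POLA1, POLA2, PRIM1, POLE, POLE2 and POLD1) were not called under any compound. POLE2 stood at -0.08 under DFO, -0.06 under Deferasirox and -0.03 under OICR623, and GINS3, a subunit of the GINS complex, at -0.02, -0.05 and -0.16. The median over the 25 fork genes was 0.09 under DFO, 0.07 under Deferasirox and 0.04 under OICR623.

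**Figure D3:**
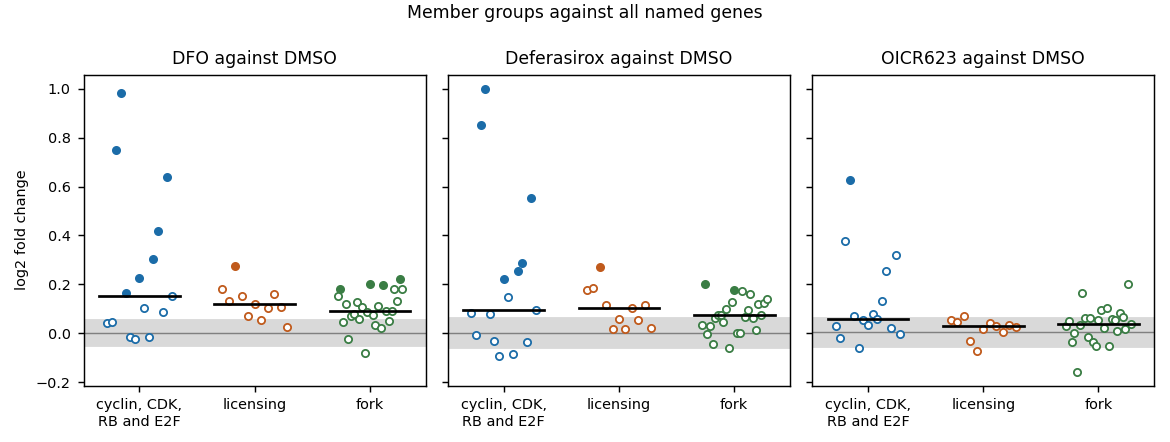
Log2 fold change of each member under DFO, Deferasirox and OICR623 against DMSO, by role; filled points are called members, black lines the median of each role, and the grey band the 25th to 75th percentile of all 18404 genes. The medians of the 3 groups of members lie at 0.09 to 0.15 under DFO and at 0.03 to 0.06 under OICR623, with that of all genes at 0.00.

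Under Deferasirox 9 of the 51 members rose and 0 fell, where 2.83% of all genes rose and 3% fell by limma. They were CCNE2, CCNE1, E2F7, E2F2, CDC6, E2F1, CDC25A, CDC45 and PCNA, and each had also risen under DFO. DFO and Deferasirox were set against the same DMSO arrays, so their calls are not independent. At an unadjusted p under 0.05 there were 18 members higher and 0 lower, where 8.66% of all genes were higher and 9.29% lower. Without the high level 8 rose, where 2.69% of all genes did. The median of the members was 0.08, against 0.00 over all genes, and 43 (84.3%) lay above 0, against 51% of all genes. Under OICR623 CCNE2 was the 1 member that rose and 0 fell, where 0.337% of all genes rose and 0.397% fell, also without the high level, where 0.532% of all genes rose. At an unadjusted p under 0.05 there were 5 members higher and 1 lower, where 4.8% of all genes were higher and 5.87% lower. Above 0 lay 40 members (78.4%), against 51.5% of all genes, and the median of the members was 0.04. Less the median of all genes it was 0.04, and it moved to 0.01 without OICR623 1, to 0.07 without OICR623 2, to 0.07 without DMSO 2 and to 0.01 without DMSO 3.

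The calls depended on how the arrays were blocked. With no block 0 members rose under any compound, where 20, 18 and 7 of all genes rose under DFO, Deferasirox and OICR623. The replicate number in place of the level also gave 0 (36, 28 and 7 of all genes). With array medians set equal, CCNE2 alone rose under DFO and Deferasirox and 0 under OICR623 (81, 98 and 15 of all genes). Quantile normalization gave the same members (81, 100 and 19 of all genes). Both were fitted with no block. With the replicate number as a block beside the level, 8 members rose under DFO (1.68% of all genes), 3 under Deferasirox (0.956%) and 0 under OICR623 (0.0761%). Number 1 was in the high level for DFO and DMSO and in the middle level for Deferasirox and OICR623. Number 3 was in the low level for Deferasirox and in the middle level for DFO and DMSO. The number may thus not pair Deferasirox or OICR623 arrays with DMSO arrays. In the middle level alone 2 rose under DFO (0.739%), 2 under Deferasirox (0.935%) and 1 under OICR623 (0.277%), the E cyclins in the first 2 and CCNE2 in OICR623. The 3 that rose under Deferasirox with both blocks were CCNE1, CCNE2 and E2F1. With a replicate block in a fit to only the 8 DFO and DMSO arrays, 8 members rose (1.37% of all genes), among them both E cyclins and E2F1, E2F2 and E2F7. The count under DFO was 7 without DFO 4 and 7 without DMSO 4. Of all genes 210 and 208 rose in these fits, against 347 with all arrays. CCNE2, CCNE1, E2F7, E2F2, E2F1, CDC6 and CDC25A were called under DFO without any 1 array. The count under Deferasirox was 4 without Deferasirox 2, without Deferasirox 3 or without DMSO 4, and 5 without DMSO 3. Of all genes 310, 269, 279 and 341 rose in these fits, against 521 with all arrays. CCNE2, CCNE1, E2F7 and CDC6 were called under Deferasirox without any 1 array.

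Differences were also taken within each level. The DFO mean lay above the DMSO mean in all 3 levels for 38 of 51 members (74.5%), against 14.8% of all genes. The 5 members with equal values in the high level could not be among them. Neither could the 30.1% of all genes with equal values there, so ties lower the share of all genes more than that of the members. The Deferasirox mean lay above the DMSO mean in both levels it shares with DMSO for 37 members (72.5%), against 32.5% of all genes. In the middle level both DFO arrays lay above both DMSO arrays for 33 members (19.9% of all genes), both Deferasirox arrays did for 29 (20.9%) and both OICR623 arrays for 15 (17.1%). The median member difference between DFO and DMSO arrays was 0.04 in the high, 0.11 in the middle and 0.16 in the low level. For Deferasirox it was 0.09 in the middle and 0.10 in the low level, and for OICR623 it was 0.04 in the middle level. The levels differed for some members, as POLD1 differed by -0.07, 0.13 and 0.15 and GINS4 by -0.10, 0.09 and 0.20 between DFO and DMSO in the high, middle and low level. The E cyclins were higher in each level. CCNE2 differed by 1.06, 0.91 and 1.05 between DFO and DMSO in these levels, and CCNE1 by 0.65, 0.75 and 0.84. FEN1 and CHAF1A varied more, with 0.06, 0.20 and 0.34 for FEN1 and 0.11, 0.20 and 0.38 for CHAF1A.

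**Figure D4:**
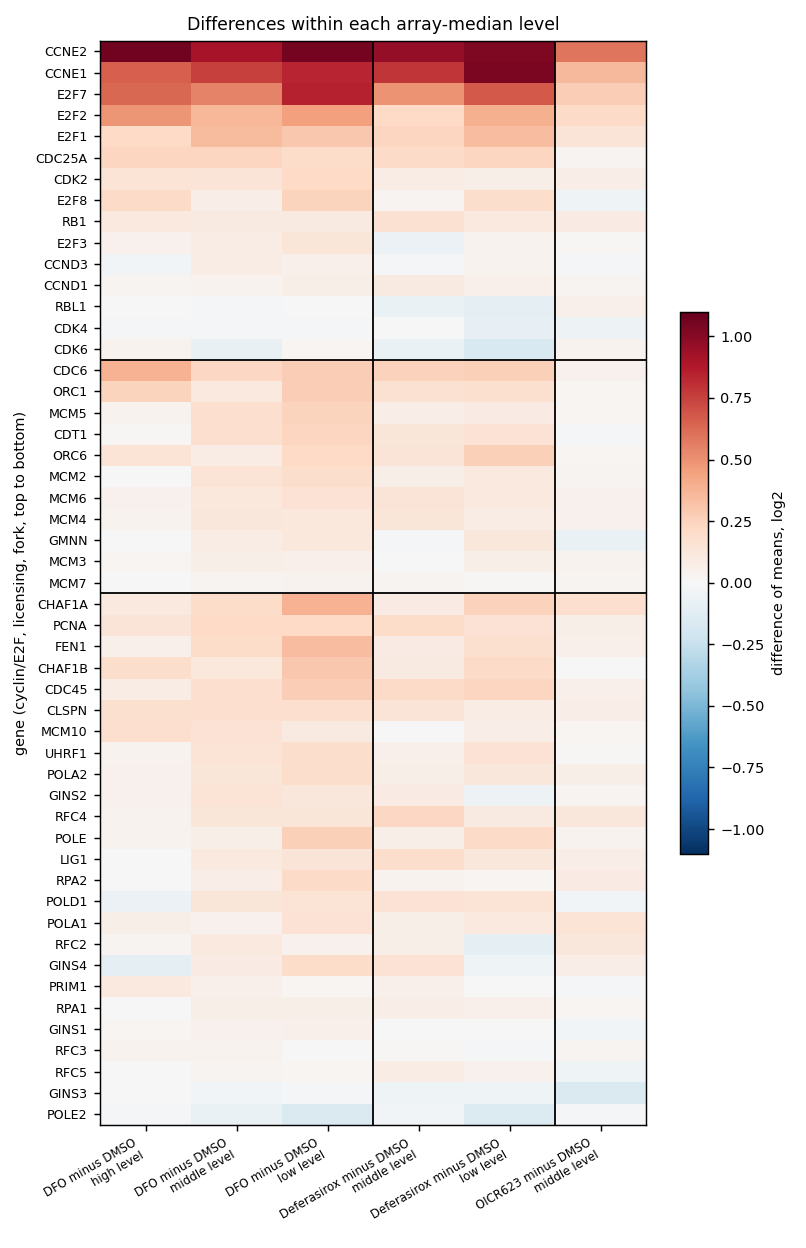
Difference in mean log2 signal between a compound and DMSO for each of the 51 members (rows, by role) within each level of the array median that both share (columns, by compound); the colour scale is the log2 difference. CCNE2, at 1.06, 0.91 and 1.05 for DFO in the high, middle and low level, has the strongest colour of the rows for DFO, and CCNE1 and E2F7 come next.

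Between compounds, which were given at different doses, 0 members were called in any of the 3 pairs by limma in the main fit. In OICR623 against DFO 0.158% of all genes were called higher and 0.0109% lower, in OICR623 against Deferasirox 0.0598% and 0.0272%, and in Deferasirox against DFO 0.0272% and 0.0163%. At an unadjusted p under 0.05, OICR623 had 0 members higher and 13 lower than DFO, where 2.97% of all genes were higher and 2.71% lower. Against Deferasirox it had 2 higher and 8 lower, where 4.01% of all genes were higher and 4.53% lower. Deferasirox had 0 members higher and 1 lower than DFO, where 5.48% of all genes were higher and 4.56% lower. CCNE1 in OICR623 differed by -0.37 from DFO (95% interval -0.55 to -0.20, adjusted p = 0.196) and by -0.48 from Deferasirox (interval -0.65 to -0.30, adjusted p = 0.0644). CCNE2 in OICR623 differed by -0.36 from DFO (interval -0.50 to -0.21, adjusted p = 0.086) and by -0.37 from Deferasirox (interval -0.52 to -0.23, adjusted p = 0.0746). In Deferasirox CCNE2 differed by 0.02 from DFO (interval -0.10 to 0.14) and CCNE1 by 0.10 (interval -0.05 to 0.25). The OICR623 signals of both E cyclins thus lay below those of the other compounds in the middle level, and the main fit did not call that difference. Among the alternative fits, only those with a random level block, with dim genes left out and with an intensity trend called it for either gene. With an intensity trend the adjusted p for CCNE1 was 0.0466 against DFO and 0.00808 against Deferasirox. For CCNE2 it was 0.00437 and 0.00447.

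Of 43 further genes of the same pathway 4 rose and 3 fell under DFO, where 1.89% of all genes rose and 2.72% fell, and 3 rose and 2 fell under Deferasirox, where 2.83% rose and 3% fell. Under OICR623 0 were called by limma, and at an unadjusted p under 0.05 there were 3 higher and 1 lower, where 4.8% of all genes were higher and 5.87% lower. Under DFO the largest rises were those of the nuclease gene EXO1 at 0.30 (SE 0.05, adjusted p = 0.00971), of MYBL2, an E2F target that encodes a factor of the later cycle, at 0.30 (SE 0.04, adjusted p = 0.000908) and of SLBP, which binds histone mRNA, at 0.22 (SE 0.04, adjusted p = 0.00858). MYBL2 and SLBP also rose under Deferasirox, by 0.24 and 0.17, and so did POLD3, a subunit of DNA polymerase delta, by 0.21. E2F5, which encodes a repressor E2F, fell by 0.31 under DFO (adjusted p = 0.0155), and CCNA2, the cyclin that follows cyclin E in S phase, fell by 0.25 (adjusted p = 0.0239). TICRR, needed to fire origins, fell by 0.17 under DFO (adjusted p = 0.015) and by 0.20 under Deferasirox (adjusted p = 0.0106), and E2F4, another repressor E2F, fell by 0.17 under Deferasirox (adjusted p = 0.0433). The median over these 43 genes was 0.02 under DFO, 0.05 under Deferasirox and -0.00 under OICR623, nearer to 0 than the medians of the members.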

How the data were processed

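Total RNA of SW480 cells was read on 13 arrays. The authors deposited a log2 signal for each transcript cluster on each array, whose processing is not given in the sources used here beyond the tools GCRMA and limma, which the submitters' processing notes name without version or step. Of 32321 rows 19158 had 1 symbol, 1388 several and 11775 none, which gave 18404 genes with the row of highest mean kept. Arrays were put in levels where neighbouring medians lay more than 0.05 apart. Differences were fitted with limma 3.58.1 (R 4.3.3) over all 13 arrays, with group and level as terms and empirical Bayes moderation, and called where p was under 0.05 after Benjamini-Hochberg adjustment across all genes. Values carry no detection calls, and the number of arrays limits their precision. Genes named array by array were the 4 called members of largest and the 4 of smallest change per compound. CDC6, the licensing gene called under DFO and Deferasirox, and MCM7 and CCND1, which are plotted beside it, were added after their values were seen. The 51 members, the further genes and the level as a block were chosen with earlier results of these data known, and the members and lists are not independent evidence. Same-numbered DFO and DMSO arrays deviated together (correlations over genes 0.945, 0.662, 0.738 and 0.788 for numbers 1 to 4), which their shared levels also give. After the level was fitted these correlations were -1, 0.081, 0.125 and -0.533. The fit itself sets the -1, as the high level holds only DFO 1 and DMSO 1, and it lowers that of number 4 in the small low level. Before the level was fitted, same-numbered Deferasirox and DMSO arrays had correlations of -0.058, 0.333 and -0.324 for numbers 1 to 3. Those of OICR623 and DMSO were 0.291 and -0.009 for numbers 1 and 2. A pairing by number was not tested further, and a replicate block was fitted as well. Where a gene had several promoter entries the first was used.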

Additional observations from a re-analysis of the deposited data

Results flagged for a closer look

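There were 102 checks for outlying values, 1 for each member in the DFO and in the DMSO group. In 36 of them 1 array stood apart from the other 3 of its group by the test. That array was DFO 1 or DMSO 1 in all 36, the arrays of the high level. The test flags about 1 in 20 checks by chance among arrays alike in level. Here the level was left out and the checks share the same arrays, so that rate does not apply. The values of DFO 1 were log2 signals of 11.71 for CCNE2, 9.23 for E2F3, 9.12 for ORC6, 10.97 for MCM2, 11.76 for MCM4, 9.68 for GINS3, 10.70 for POLA1, 10.81 for POLA2, 9.90 for POLE, 9.86 for POLD1, 11.92 for PCNA, 11.98 for RFC2, 11.27 for RFC4, 10.72 for FEN1, 9.30 for RPA2, 10.13 for CLSPN, 11.99 for UHRF1, 10.17 for CHAF1A and 10.86 for CHAF1B. Those of DMSO 1 were log2 signals of 10.64 for CCNE2, 10.27 for E2F8, 10.97 for MCM2, 11.72 for MCM4, 10.57 for MCM5, 10.30 for CDC45, 9.69 for GINS3, 10.76 for POLA2, 9.93 for POLD1, 11.78 for PCNA, 11.94 for RFC2, 11.23 for RFC4, 10.66 for FEN1, 9.23 for LIG1, 9.30 for RPA2, 9.95 for CLSPN and 11.96 for UHRF1. Each lay above the other arrays of its group. For CCNE2 the other DFO arrays lay at 10.53 to 10.68 and the other DMSO arrays at 9.56 to 9.69, and for PCNA they lay at 11.22 to 11.30 and at 10.98 to 11.10. DFO 1 and DMSO 1 are the only arrays of their level, and array and level cannot be told apart.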

How the results depend on the processing

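Medians of the members less those of all genes stayed above 0 in the alternatives run for DFO and Deferasirox against DMSO. For OICR623 they did so in all but 1, at -0.02 with the replicate number in place of the level. DFO and DMSO have equal numbers of arrays in each level and replicate number. A change of block therefore could not move the DFO fold changes, and the DFO value in such fits is no check. Neither could it move with array medians set equal, with an intensity trend or without an OICR623 or Deferasirox array. Under DFO the difference in medians was 0.11, and it was 0.08 to 0.14 when 1 DFO or DMSO array was left out. Counts of members that rose depended on the level. Under DFO 12 rose in the main fit (347 of all genes). With no block 0 rose (20 of all genes), and 0 with the replicate number as a block in place of the level (36). With array medians set equal and no block 1 rose (CCNE2, 81 of all genes), as with quantile normalization and no block (81). In the middle level alone 2 rose (CCNE1 and CCNE2, 136 of all genes). With an intensity trend 20 rose (492 of all genes), and 7 to 12 when any 1 array was left out (208 to 361). Under Deferasirox 9 rose in the main fit (521 of all genes). With no block 0 rose (18 of all genes), and 0 with the replicate number in place of the level (28). With medians set equal 1 rose (CCNE2, 98 of all genes), as with quantile normalization (100). In the middle level alone 2 rose (CCNE1 and CCNE2, 172 of all genes). With an intensity trend 13 rose (735 of all genes), and 4 to 9 when any 1 array was left out (269 to 509). With level and replicate block together 3 rose (176 of all genes). Under OICR623 1 rose in the main fit (62 of all genes). With no block 0 rose (7 of all genes), with medians set equal 0 (15) and with quantile normalization 0 (19). The replicate number in place of the level gave 0 (7 of all genes), and level and replicate block together 0 (14). With dim genes left out 2 rose (CCNE1 and CCNE2, 94 of all genes tested), as with an intensity trend (151). Of the members called, 2 changed sign under Deferasirox. CDC25A stood at -0.11 with the replicate number in place of the level, and PCNA at -0.0022 with no block and -0.070 with the replicate number in place of the level. In these fits the median of all genes stood at -0.15 with no block and -0.24 with the replicate number in place of the level. Whether the replicate number pairs Deferasirox arrays with DMSO arrays was not tested. Between compounds, CCNE2 was the 1 member lower in OICR623 than in DFO with dim genes left out (2 of all genes tested). With an intensity trend 2 were lower (CCNE1 and CCNE2, 10 of all genes). In OICR623 against Deferasirox 1 was lower with the level as a random block (CCNE1, 22 of all genes). With dim genes left out 2 were lower (CCNE1 and CCNE2, 25 of all genes tested), as with an intensity trend (60). The fits with level and replicate block together, without the high level and on 8 arrays alone were chosen after seeing the data.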
